A study of Mus musculus with 6 samples.

Results

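Coenzyme Q, or ubiquinone, is the lipid-soluble electron carrier of the inner mitochondrial membrane, and 10 genes of its synthesis and handling were followed in inguinal white adipose tissue (iWAT), the fat pad of the groin: Coq2, Coq3, Coq4, Coq5, Coq6, Coq7, Coq8a, Coq9, Coq10a and Coq10b. They were chosen by symbol, as 10 of the 57180 genes in the deposited count table, and all 10 had enough counts to be tested. The ADISSP group held 3 libraries from wild-type mice on a high-fat diet that were given recombinant Adissp, a protein secreted by fat cells, at 68 nmol/kg every day for 33 days. The Control group held 3 libraries from wild-type mice on the same diet. The labels describe the libraries as biological triplicates and give all of them the same batch number, but give neither the age or sex of the mice nor what the controls received, and they do not say whether animals were pooled. Whole tissue was used, so that fewer cells of a type and less RNA per cell cannot be told apart.

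Coenzyme Q collects electrons from complex I, complex II and several single dehydrogenases and passes them to complex III. It is built in the mitochondrion from an aromatic ring derived from tyrosine and a long isoprenoid tail derived from mevalonate. COQ2 joins ring and tail, and the enzymes COQ3, COQ5, COQ6 and COQ7 then decorate the ring, helped by COQ4, COQ8 and COQ9 in a membrane-bound assembly. Brown and beige fat cells, which burn fuel to make heat, are rich in mitochondria and therefore in coenzyme Q.

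The libraries held 10357930 to 15658428 counts in ADISSP and 13966685 to 15400072 in Control. Transcripts of the mitochondrial genome made up 8.43% to 11.1% of the counts in ADISSP and 3.13% to 4.2% in Control. Levels are given as CPM, counts per 1000000 after TMM scaling, which sets libraries on a common scale from the bulk of their genes. Levels of different genes are compared as deposited TPM, which also divides by gene length. Of 17320 tested genes, 3197 (18.5%) were higher in ADISSP and 2861 (16.5%) were lower at an adjusted p under 0.05 in edgeR's quasi-likelihood test, and with library totals as the only scaling the numbers were 1756 and 6600. Fat cell markers, the defining genes of the labelled tissue, summed to 33000 to 36400 CPM in ADISSP and 25000 to 32700 CPM in Control. Of these 13 markers 6 were higher and 0 lower in the edgeR test. With limma on log2(TPM + 1), 2 were higher and 3 lower, where 1288 and 9523 of 17320 tested genes were. The summed CPM of 18 skeletal muscle markers was 4690 to 5480 in ADISSP, against 58.9 and 80.5 in Control 1 and 2 and 12700 in Control 3, and Control 3 also stood apart from the other controls across all genes. The members' fold changes were therefore also computed without Control 3 and against Control 3 alone.

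Nearly the whole set rose in Adissp-treated fat. Of the 10 genes, 9 rose and 0 fell, where 18.5% of all tested genes were higher. The median log2 fold change was 1.7 for the 10 genes and -0.01 for all tested genes. Of the 17320 tested genes, 533 lay above the members' median. The size depended on the scaling. The medians were 1.35 for the 10 genes and -0.36 for all tested genes on library totals. On log2(TPM + 1) they were 1.01 and -0.51. Coq8a, which encodes an atypical kinase-like ATPase of the coenzyme Q assembly, rose 16.6-fold. Coq10b, which encodes a coenzyme Q binding protein, was the only member that did not pass. CPM did not overlap between the groups for 9 of the 10 genes, where 49.8% of all tested genes did not overlap.

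**Figure D1:**
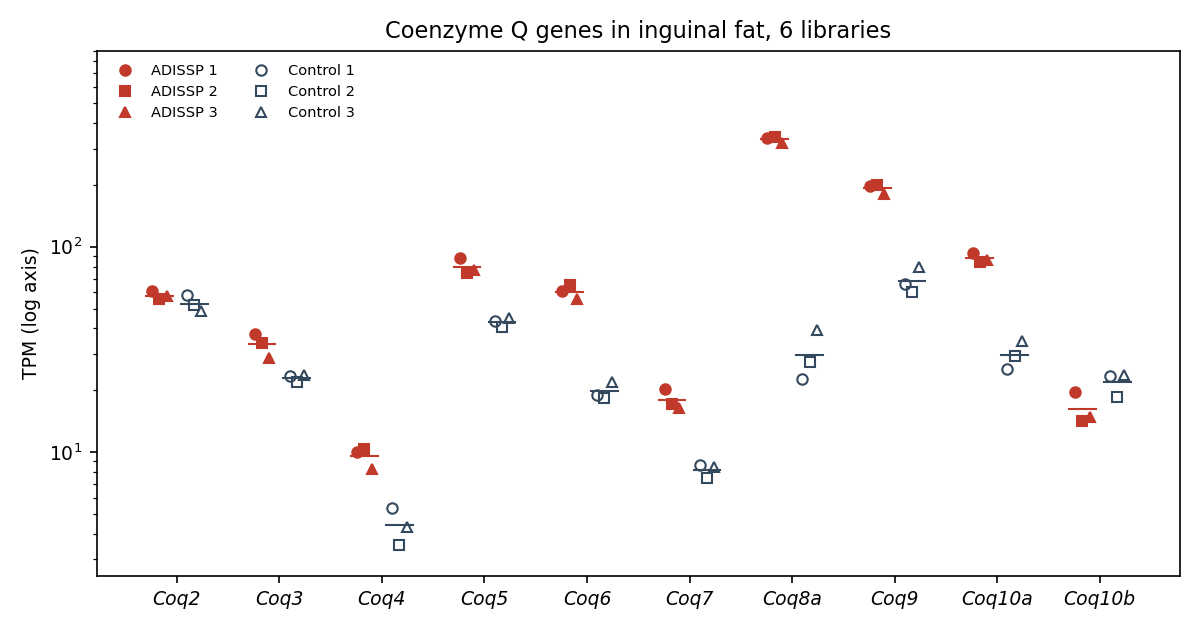
TPM on a log axis for each of the 10 genes, ADISSP (filled) left of Control (open), with 1 symbol per library and a line at the group mean. Coq8a stands at 319 to 342 TPM in ADISSP and 22.8 to 39.2 TPM in Control, while the groups of Coq2 and Coq10b overlap.

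Coq2, the prenyltransferase that attaches the tail to the ring, had 56.1, 53.9 and 51.4 CPM in ADISSP, against 35.6, 30.7 and 32.4 CPM in Control. All 3 ADISSP libraries stood above all 3 Control libraries. Its log2 fold change was 0.71 (SE 0.10, adjusted p = 0.00083 in edgeR's quasi-likelihood test), the smallest among the members that rose. On log2(TPM + 1), tested with limma, it was 0.13 (adjusted p = 0.25). On that scale the median of all tested genes was -0.51, and Coq2 stood 0.64 above it. That scale called 8 of the 10 members higher, where it called 7.44% of all tested genes higher.

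The hydroxylases and methyltransferases that modify the ring all rose. Coq6, a flavin-dependent hydroxylase, had 67.2, 75.9 and 59.5 CPM in ADISSP, against 14.0, 13.0 and 17.4 CPM in Control (log2 fold change 2.19, SE 0.14, adjusted p = 1.6e-05). The lowest ADISSP library was far above the highest Control library. Coq7, the hydroxylase of a late step, had 46.1, 40.9 and 35.9 CPM in ADISSP, against 13.0, 10.9 and 13.8 CPM in Control (log2 fold change 1.71, SE 0.14, adjusted p = 5.2e-05). Coq5, the C-methyltransferase, had 93.9, 83.8 and 79.0 CPM in ADISSP, against 30.8, 27.8 and 34.3 CPM in Control (log2 fold change 1.47, SE 0.11, adjusted p = 3.1e-05). Coq3, the O-methyltransferase, had a smaller fold change than these 3. It had 39.8, 38.0 and 29.1 CPM in ADISSP, against 16.5, 14.9 and 17.9 CPM in Control (log2 fold change 1.12, SE 0.15, adjusted p = 0.00069).

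The partners that carry no ring-modifying step of their own in the classical scheme rose as well. Coq9, a lipid-binding protein that works with COQ7, had 214, 227 and 187 CPM in ADISSP, against 47.2, 41.3 and 61.2 CPM in Control (log2 fold change 2.07, SE 0.16, adjusted p = 2.9e-05). Control 3 was the highest of the controls and still below every ADISSP library. Coq4, a subunit needed for the assembly, was the least abundant member, with 12.0, 13.0 and 9.53 CPM in ADISSP, against 4.26, 2.70 and 3.69 CPM in Control (log2 fold change 1.70, SE 0.23, adjusted p = 0.00074). Its counts were 118 to 152 per library in ADISSP and 49 to 75 in Control.

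Coq8a had the largest fold change of the 10 genes. It had 631, 673 and 575 CPM in ADISSP, against 28.3, 32.7 and 52.4 CPM in Control (log2 fold change 4.05, SE 0.25, adjusted p = 2.3e-05). Within Control it was highest in Control 3, and within ADISSP the libraries were close together. Its paralogue Coq8b, which encodes a related protein of the same assembly, had 31.5, 26.2 and 27.7 CPM in ADISSP, against 18.8, 18.2 and 17.9 CPM in Control (log2 fold change 0.64, SE 0.12, adjusted p = 0.0037). The ratio of Coq8a to Coq8b, taken within each library on TPM and so free of the scaling between libraries, was 21.1, 27.1 and 21.9 in ADISSP, against 1.59, 1.89 and 3.09 in Control. The difference of the mean log2 ratios was 3.47 (two-sided exact permutation p = 0.1, the smallest that 3 against 3 libraries can give). With Control 3 as the only control, Coq8a was 3.57 and Coq8b 0.67, in a fit where the lone control gives no spread of its own.

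The COQ10 paralogues, lipid-binding proteins that hold coenzyme Q and are needed for its use rather than for its synthesis, had unlike fold changes. Coq10a had 84.7, 80.1 and 75.8 CPM in ADISSP, against 15.3, 17.1 and 22.5 CPM in Control (log2 fold change 2.14, SE 0.15, adjusted p = 1.9e-05). Coq10b had 33.3, 25.3 and 24.3 CPM in ADISSP, against 26.4, 19.9 and 28.8 CPM in Control (log2 fold change 0.14, SE 0.17, adjusted p = 0.55). Its groups overlapped, and its direction depended on the scaling, with -0.20 on library totals and -0.41 on log2(TPM + 1), neither past the threshold. The ratio of Coq10a to Coq10b in TPM was 4.75, 5.91 and 5.82 in ADISSP, against 1.08, 1.60 and 1.46 in Control. The difference of the mean log2 ratios was 2.01 (two-sided exact permutation p = 0.1, again the smallest possible).

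**Figure D2:**
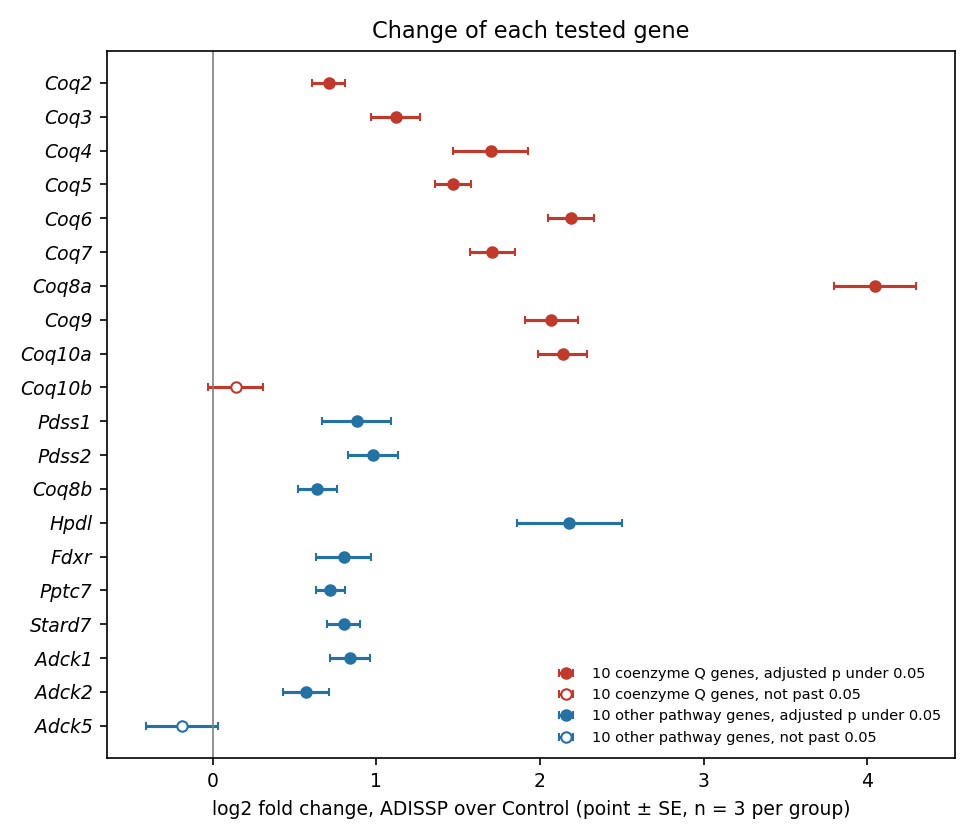
Log2 fold change of ADISSP over Control with its standard error for the 10 coenzyme Q genes and 10 other tested genes of the pathway, filled where the adjusted p was under 0.05. Coq8a lies farthest to the right at 4.05, and Coq10b (0.14) and Adck5 (-0.19) are the open points.

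The start regions of the member that rose most and of the COQ10 paralogues are shown because their fold changes were so unequal. They are from RefSeq on GRCm38.p6, 250 bases before to 50 after an annotated start, 5′ to 3′ on the gene's strand. That build differs from the GRCm39 positions of the count table. The table held 12 such regions for 9 of the 10 genes, with the exception of Coq5. Capitals mark the nuclear receptor core AAGGTCA, on either strand.
Coq8a, chr1:180195971-180196270, minus strand: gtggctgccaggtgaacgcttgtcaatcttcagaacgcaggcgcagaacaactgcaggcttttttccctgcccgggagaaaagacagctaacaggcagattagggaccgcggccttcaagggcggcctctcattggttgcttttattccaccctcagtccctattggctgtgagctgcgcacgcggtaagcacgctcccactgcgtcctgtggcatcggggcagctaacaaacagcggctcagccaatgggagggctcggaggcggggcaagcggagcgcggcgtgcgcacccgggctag
Coq8a, chr1:180193436-180193735, minus strand: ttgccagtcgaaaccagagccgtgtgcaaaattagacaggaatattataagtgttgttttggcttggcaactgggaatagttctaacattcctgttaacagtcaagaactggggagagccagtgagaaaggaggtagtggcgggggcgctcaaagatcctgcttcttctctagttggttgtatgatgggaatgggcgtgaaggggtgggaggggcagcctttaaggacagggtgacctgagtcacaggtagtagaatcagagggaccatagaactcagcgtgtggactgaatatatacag
Coq10a, chr10:128369988-128370287, minus strand: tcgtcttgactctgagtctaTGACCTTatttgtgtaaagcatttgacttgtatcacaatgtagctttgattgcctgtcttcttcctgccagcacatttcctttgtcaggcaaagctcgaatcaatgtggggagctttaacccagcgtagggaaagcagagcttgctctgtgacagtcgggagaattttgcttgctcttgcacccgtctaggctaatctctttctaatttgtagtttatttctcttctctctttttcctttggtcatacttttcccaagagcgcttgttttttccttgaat
Coq10a, chr10:128368931-128369230, minus strand: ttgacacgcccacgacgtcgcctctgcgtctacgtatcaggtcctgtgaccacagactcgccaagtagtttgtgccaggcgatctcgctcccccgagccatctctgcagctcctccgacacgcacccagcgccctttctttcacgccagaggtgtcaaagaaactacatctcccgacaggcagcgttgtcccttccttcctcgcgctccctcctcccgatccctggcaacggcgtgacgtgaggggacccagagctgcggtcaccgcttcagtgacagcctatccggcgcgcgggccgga
Coq10b, chr1:55052520-55052819, plus strand: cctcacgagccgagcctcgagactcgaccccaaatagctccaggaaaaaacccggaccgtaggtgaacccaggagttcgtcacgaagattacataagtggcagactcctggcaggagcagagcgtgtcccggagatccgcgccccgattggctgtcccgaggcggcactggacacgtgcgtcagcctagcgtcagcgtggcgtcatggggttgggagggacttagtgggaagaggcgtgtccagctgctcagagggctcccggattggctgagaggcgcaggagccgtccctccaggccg

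Coq8a has starts of unlike base composition in this table. The start lying farther upstream held 22 CG dinucleotides with 61.7% G and C, and the other held 6 with 48.7%. The Coq10a region lying farther upstream held 6 CG dinucleotides with 42.3% G and C, the other 29 with 63.3%, and the Coq10b region 25 with 63.7%. All 12 regions were searched on both strands for the estrogen-related receptor element TCAAGGTCA, the NRF1 core GCGCATGCG, the ETS core CCGGAAG, the cyclic AMP element TGACGTCA and the receptor core, which is contained in the first of these. The ETS core was found in 1 of the 12 regions, that of Coq6, against 8.86% of 32851 regions in the table. The receptor core was found in 1 of the 12, the upstream Coq10a region, against 4.72% of all regions. The estrogen-related receptor element, the NRF1 core and the cyclic AMP element were in 0 of the 12, against 0.423%, 1.75% and 1.79% of all regions. A match or its absence describes only the letters of these windows.

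The relative abundance of the members was rearranged. In TPM their sum was 844 to 927 in ADISSP and 279 to 329 in Control. Coq8a made up 37.5% ± 0.901 of that sum in ADISSP and 9.82% ± 2.1 in Control (SD, n = 3 each), and it ranked first in all 3 ADISSP libraries and from 4 to 7 in the Control libraries. Coq9, with 193 ± 10.9 TPM in ADISSP and 68.4 ± 9.87 TPM in Control, ranked second in ADISSP and first in Control. Coq2 held 6.51% ± 0.325 of the sum in ADISSP and 17.7% ± 2.5 in Control, and Coq10b held 1.82% ± 0.274 in ADISSP and 7.25% ± 0.672 in Control. Coq9, Coq10a and Coq6 kept nearly the same share, at 21.7%, 9.9% and 6.8% in ADISSP and 22.7%, 9.88% and 6.56% in Control.

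In ADISSP the order of TPM was Coq8a (333), Coq9 (193), Coq10a (87.9), Coq5 (79.6), Coq6 (60.5), Coq2 (57.9), Coq3 (33.5), Coq7 (17.9), Coq10b (16.2) and Coq4 (9.54). Neighbours whose libraries overlapped there were Coq10a with Coq5, Coq6 with Coq2, and Coq7 with Coq10b. In Control the order was Coq9 (68.4), Coq2 (52.9), Coq5 (42.9), Coq8a and Coq10a (29.8 each), Coq3 (23.0), Coq10b (21.9), Coq6 (19.8), Coq7 (8.2) and Coq4 (4.39). Neighbours whose libraries overlapped there were Coq8a with Coq10a, Coq8a with Coq3, Coq3 with Coq10b, and Coq10b with Coq6, while those of Coq10a and Coq3 did not overlap.

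Across the 6 libraries the log2 CPM of the 9 members that rose moved together, with Pearson's r of 0.95 to 1 over their 36 pairs, while Coq10b had an r of 0.37 to 0.51 with them. These libraries form groups that differ in most members, so these values describe the group difference. The genes outside the set most like the members' mean pattern were Glul, Dnajc15, Mcur1, Mrpl50 and Sfxn5, with an r of 0.9993 to 0.9994 over the 6 libraries. At a looser cut likeness was common, since 1623 of 13343 genes considered (12.2%) had an r over 0.95.

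Genes acting before and beside the members rose too, mostly by less. Of 11 such genes 10 were tested, 9 rose and 0 fell, with a median of 0.80, where 18.5% of all tested genes were higher. Pdss1 and Pdss2, the subunits of the enzyme that builds the tail, rose by 0.88 (SE 0.21, adjusted p = 0.012) and 0.98 (SE 0.15, adjusted p = 0.0017). Without Control 1 the adjusted p of Pdss1 was 0.0514. Hpdl, known from human cells for making the ring precursor, had 7.85, 9.73 and 8.04 CPM in ADISSP, against 1.70, 1.16 and 2.80 CPM in Control (log2 fold change 2.18, SE 0.32, adjusted p = 0.0012). It was the only one of these genes to rise by more than the members' median. Fdxr, the reductase that feeds electrons to mitochondrial ferredoxins, rose by 0.80, the lipid transfer gene Stard7 by 0.80, and the mitochondrial phosphatase gene Pptc7 by 0.72. Of the COQ8 relatives of less certain function, Adck1 rose by 0.84 and Adck2 by 0.57, while Adck5 was at -0.19 (adjusted p = 0.55). Fdx2 had 0 to 11 counts per library and was not tested. On library totals Pdss1, Coq8b, Fdxr and Adck2 did not pass (adjusted p of 0.0865, 0.0971, 0.0876 and 0.305). On log2(TPM + 1) Stard7 and Hpdl were the only ones past the threshold in the direction of ADISSP, and Adck5 was -0.63 (adjusted p = 0.0285).

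The mevalonate route supplies the isoprenoid units. Of its 8 genes up to farnesyl diphosphate, 1 rose and 0 fell, with a median of 0.08, where 18.5% of all tested genes were higher and 16.5% lower. With 1 of 8 against those shares, the count says nothing particular about the route. Acat2, which makes the first intermediate, rose by 1.07 (SE 0.14, adjusted p = 0.00076). Pmvk, a kinase of the route, was at 0.38 (adjusted p = 0.090). The count depended on scaling and on Control 3, as did that of all genes. On library totals 3 of the 8 passed as lower, where 6600 of 17320 tested genes did. On log2(TPM + 1) 4 of the 8 passed as lower, where 9523 of 17320 tested genes did. Without Control 3, 4 of the 8 passed as higher, where 4305 of 18222 tested genes did.

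Enzymes that load coenzyme Q with electrons, and the complex that unloads it, rose with the members. Of 13 tested genes for enzymes that reduce ubiquinone, 12 rose and 0 fell, with a median of 1.93, where 18.5% of all tested genes were higher. Gpd2, the glycerol phosphate dehydrogenase of the inner membrane, rose by 3.60 (SE 0.17), Etfdh, which passes on electrons from fatty acid oxidation, by 2.41 (SE 0.14) and Sdhd of complex II by 2.06 (SE 0.13). All 9 complex III subunit genes rose, with a median of 2.27 and a range of 1.80 to 2.47, including Uqcrc2 (2.27), Uqcrfs1 (2.37) and Uqcrq (2.38). Of 15 genes taken as a gauge of mitochondrial content, 14 rose, with a median of 1.27, among them Letm1 (1.96), Cs (1.87) and Timm44 (1.47). On log2(TPM + 1), 10 of the enzyme genes passed as higher and 1 as lower, where 1288 and 9523 of 17320 tested genes did. The content genes were likewise 10 higher and 1 lower there, and all 9 complex III genes stayed higher.

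**Figure D3:**
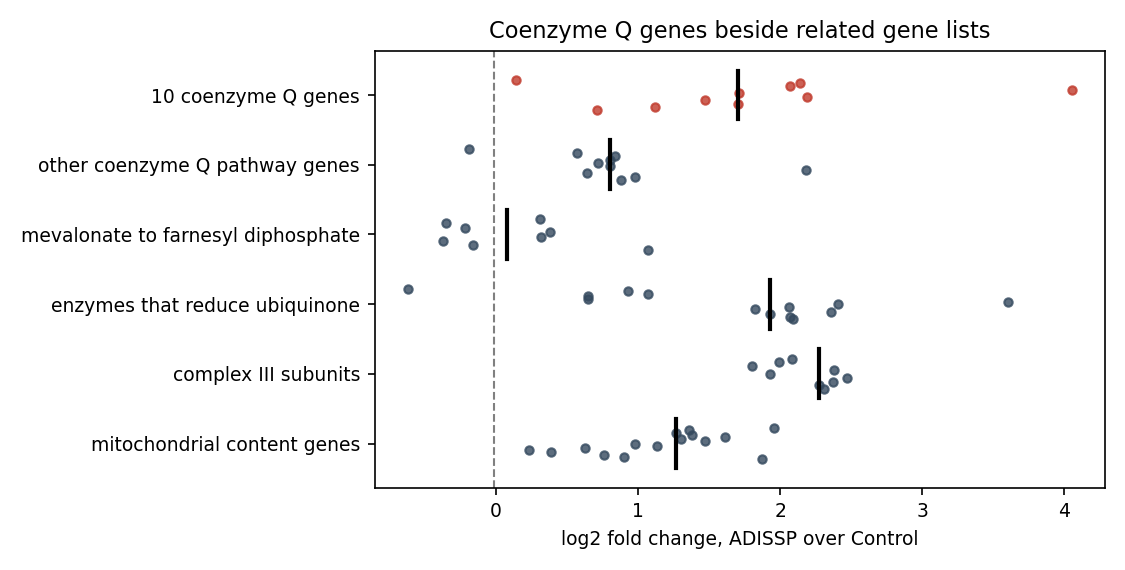
Log2 fold changes of ADISSP over Control for the 10 coenzyme Q genes (red) and 5 related lists (dark), 1 point per tested gene, with a bar at each list's median and a dashed line at the median of all tested genes (-0.01). The medians are 1.7 for the 10 genes, 0.8, 0.08, 1.93, 2.27 and 1.27 for the lists from top to bottom.

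Whether each member moved more or less than mitochondrial genes was measured as its count divided by that of Cs, the citrate synthase of the matrix, in the same library. Cs itself had 1724, 1646 and 1435 CPM in ADISSP, against 438, 372 and 509 CPM in Control. Coq8a was higher per Cs count, at 0.366, 0.409 and 0.400 per Cs count in ADISSP, against 0.0645, 0.0877 and 0.103 in Control, a mean log2 difference of 2.23. Coq2 was lower per Cs count, at 0.0325, 0.0328 and 0.0358 in ADISSP, against 0.0813, 0.0824 and 0.0636 in Control, a difference of -1.16. Coq10b (-1.73), Coq3 (-0.76) and Coq5 (-0.40) were also lower per Cs count, and Coq6 (0.32), Coq10a (0.28), Coq9 (0.21) and Coq7 (-0.17) lay closer to 0. For these 9 genes the groups did not overlap, and each exact permutation test, two-sided, gave p = 0.1 (0.111 adjusted over the 10), the smallest that this design allows, so that none of them could pass. Coq4 overlapped (-0.16, exact p = 0.5). With summed complex III counts or summed mitochondrial content gene counts in place of Cs, Coq8a remained positive (1.86 and 2.65) and Coq2 (-1.52 and -0.74), Coq3 (-1.13 and -0.34) and Coq10b (-2.09 and -1.31) remained negative, while the signs of Coq4, Coq5, Coq6, Coq7, Coq9 and Coq10a each turned under 1 of the 2.

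**Figure D4:**
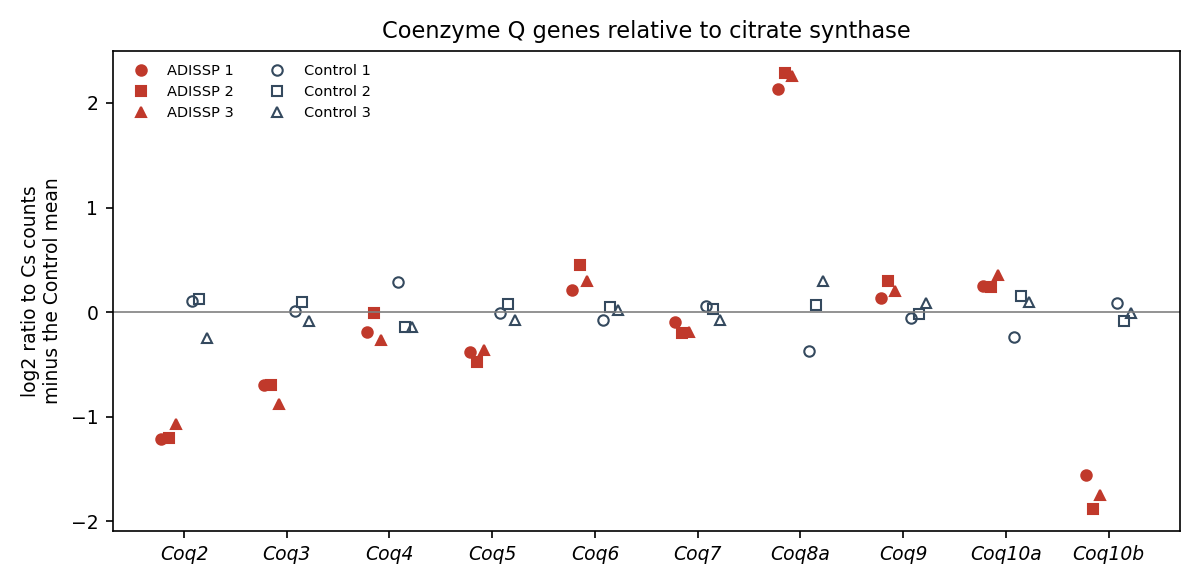
Log2 ratio of each member's counts to Cs counts in the same library, minus the mean of the Control libraries, with ADISSP (filled) left of Control (open). Coq8a lies above the Control libraries and Coq2, Coq3 and Coq10b below them, and the other members lie within 0.5 of 0 in every library.

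Coq8a and Coq10a are known to be high in heart and skeletal muscle, and muscle markers differed between libraries. With Control 3, the library richest in muscle markers, as the only control, 9 of the 10 members were higher past the threshold, where 10.3% of tested genes were; the lone control is then assumed to vary as the ADISSP libraries do. Coq8a was then 3.57, Coq6 1.95, Coq10a 1.83 and Coq9 1.77. Without Control 3 they were 4.36, 2.32, 2.31 and 2.24. With the mean log2 CPM of the muscle markers as a covariate, 9 of the 10 were higher, where 12.7% of tested genes were. Coq8a was 3.63 (SE 0.16) in that fit. The score was 0.98 and 1.46 in Control 1 and 2, 7.61 in Control 3 and 7.07 to 7.28 in ADISSP. The covariate fit therefore rests largely on Control 3 and is no separate check. Control 3 did not match ADISSP in muscle fibre genes. Myh2, a myosin of oxidative fibres, had 95.4, 16.6 and 61.9 CPM in ADISSP, against 1.08, 0.881 and 1.44 CPM in Control. Mb, the oxygen store of such fibres, had 26.4, 17.6 and 28.0 CPM in ADISSP, against 0.397, 0.551 and 2.80 CPM in Control, and Myh1 had 237, 101 and 177 CPM in ADISSP, against 3.23, 3.47 and 11.5 CPM in Control. Of the 18 markers these 3 rose and 0 fell, where 18.5% of all tested genes were higher and 16.5% lower. Without Control 3, 18 rose, where 4305 of 18222 tested genes were higher. The markers summed to 4690 to 5480 CPM in ADISSP, under the 12700 CPM of Control 3. Markers of brown and beige fat cells moved with the members as well: all 12 rose, with a summed level of 4870 to 5720 CPM in ADISSP and 280 to 439 CPM in Control. B cell, T cell and macrophage markers, 10 of 10 in each list, fell, with summed levels of 6.58 to 12.7, 26.6 to 30.2 and 259 to 348 CPM in ADISSP and 142 to 729, 69.2 to 297 and 617 to 701 CPM in Control. The T cell count was 3 without any 1 of the ADISSP libraries and 4 without Control 1. Among all tested genes, 1672 to 1849 of 18177 to 18233 and 1563 of 17705 were then lower. Of the fibroblast markers 7 of 9 fell and of the endothelial markers 3 of 9, with sums of 2020 to 2660 and 734 to 895 CPM in ADISSP and 4380 to 5020 and 1030 to 1050 CPM in Control. The counts of these lists with all libraries stand beside the same 18.5% of all tested genes higher and 16.5% lower. All 9 endothelial markers passed as lower on library totals, where 6600 of 17320 tested genes did. Of 8 epithelial markers 2 were tested and 0 passed. The 8 markers summed to 1.49 to 4.6 CPM in ADISSP and 2.5 to 3.9 CPM in Control. Krt14 and Krt5 were at 0 in all ADISSP libraries and at most 0.057 and 0.137 CPM in Control, under a count of 3. The part of oxidative fibres and of each of these other cell types in the members' values was not tested.

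**Figure D5:**
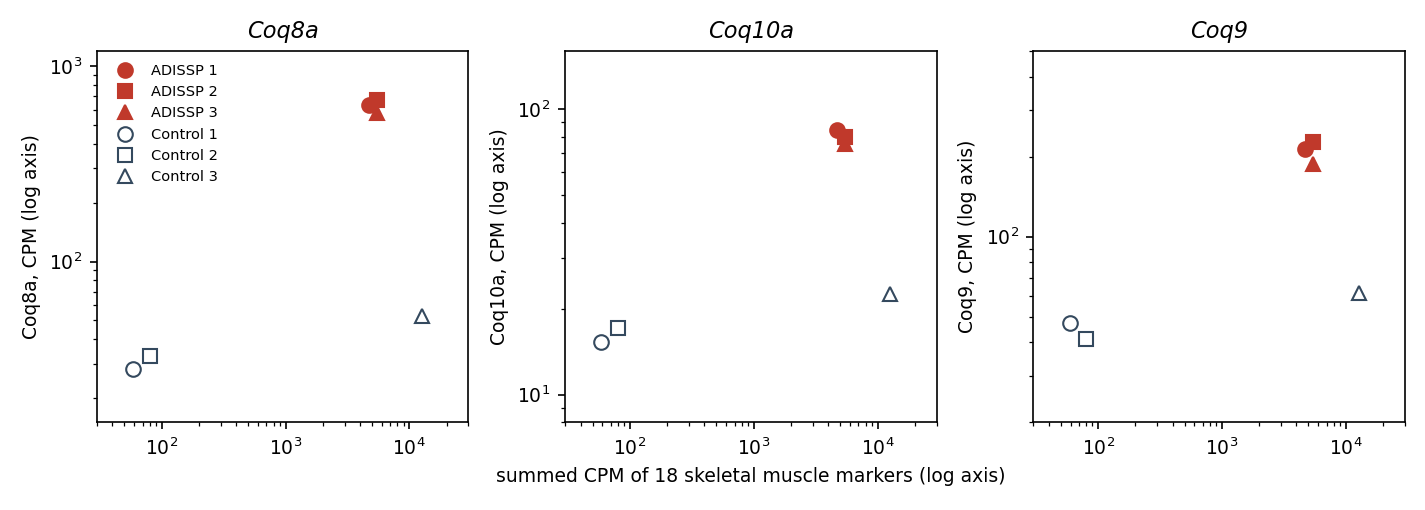
CPM of Coq8a, Coq10a and Coq9 against the summed CPM of 18 skeletal muscle markers, both on log axes, with 1 symbol per library. The ADISSP libraries lie at 4690 to 5480 CPM of muscle markers with 575 to 673 CPM of Coq8a, and Control 3 lies farthest to the right at 12700 CPM of muscle markers with 52.4 CPM of Coq8a.

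Several members share ground with a gene on the opposite strand, and the strand setting of the counting is not given in the sources used here. On GRCm39 Coq8a (ENSMUSG00000026489) lies on chromosome 1 from 179992803 to 180027167, on the minus strand, and overlaps Cdc42bpa by 366 bases. Cdc42bpa was at -0.23 (adjusted p = 0.0928). Coq9 (ENSMUSG00000031782), on chromosome 8 from 95564949 to 95581523, overlaps Ciapin1 by 38 bases, and Ciapin1 rose by 1.83. Coq4 (ENSMUSG00000026798), on chromosome 2 from 29677505 to 29687947, overlaps Trub2 by 1010 bases, with Trub2 at 0.26 (adjusted p = 0.22). Coq6 (ENSMUSG00000021235), on chromosome 12 from 84408431 to 84420570, overlaps Fam161b by 177 bases, and Fam161b rose by 0.92. Over all libraries, Trub2 had 319% of the counts of Coq4 and Cdc42bpa 61.9% of those of Coq8a. Ciapin1 had 30.7% of the counts of Coq9 and Fam161b 7.4% of those of Coq6. Coq10a (ENSMUSG00000039914), on chromosome 10 from 128198969 to 128204866, overlaps no other listed gene. Coq10b (ENSMUSG00000025981), on chromosome 1 from 55091929 to 55111861, contains the pseudogene Gm17971, whose counts were 7.32% of its own.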

How the data were processed

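Per the submitters' processing notes, reads were aligned with STAR and counted per gene with featureCounts on mm39 (GRCm39). Tool versions and the strand setting are not given there. Per the labels' protocols, ribosomal RNA was depleted from total RNA. The deposited counts are whole and unnormalised. The deposited TPM values sum to 1e+06 per library over 23524 genes, and the deposited FPKM values served only an alternative. In R 4.3.3, edgeR 4.0.16 (filterByExpr, TMM factors, robust quasi-likelihood test, no covariate, Benjamini-Hochberg over 17320 genes) compared ADISSP with Control, 3 libraries each. A gene with an adjusted p under 0.05 is said to have risen or fallen. Standard errors are the log2 fold change divided by the square root of F. The test was run on simulated counts with known changes in a small set of genes, balanced in direction. That run does not address the dependence on scaling. Alternatives used DESeq2 1.42.0, limma 3.58.1 and other settings given at the end. P-values of the fits set the difference of the groups against the spread between these libraries within a group.

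The members, lists and alternatives were chosen with earlier results of these data known, and the receptor core after the other motifs had been counted. Named genes are all members, all other pathway genes, the 3 smallest p of each other list, the 5 closest patterns and Cs. Choldh was not analysed here. The result for 1 gene that this rule names is not reported here. Same-numbered libraries of the 2 groups share only a number in the labels.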

Additional observations from a re-analysis of the deposited data

How the results depend on the processing

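The 9 members called higher and 0 called lower kept these numbers in 14 of 16 other settings, and both TPM settings called 8 higher. Changed genes numbered 6058, against 10811 and 10746 on log2(TPM + 1) and log2(TPM + 0.1), 3960 with the muscle score as a covariate, 3190 against Control 3 alone, and 3823 to 8517 with 1 library left out, lowest without Control 1 and highest without Control 3. With the replicate number as a block, 9 members and 5541 genes passed, and no call of a member changed. Deviations of same-numbered libraries correlated at 0.035, 0.08 and 0.05, and each library correlated best with its own number. The median of all genes moved to -0.36 on library totals, -0.51 on log2(TPM + 1) and -0.58 on log2(TPM + 0.1), and that of the 10 members, 1.7 with TMM scaling, to 1.35, 1.01 and 1.12. Coq10b, not called in any setting, was -0.20, -0.41 and -0.43 there, -0.01 with the muscle score, -0.06 against Control 3 alone, and 0 to 0.26 with 1 library left out. Adck5 was 0.06 with the muscle score and 0.10 against Control 3 alone. The differences per Cs count that turned were those of Coq4, Coq5 and Coq7 against mitochondrial content genes (0.26, 0.02 and 0.25) and of Coq6, Coq9 and Coq10a against complex III (-0.04, -0.15 and -0.08). The log2 differences of Coq8a to Coq8b and of Coq10a to Coq10b ranged from 3.26 to 3.74 and from 1.84 to 2.12 with 1 library left out. The cause of these differences was not tested. A count of 3, the least read as present, was 0.213 to 0.332 CPM in ADISSP and 0.165 to 0.205 CPM in Control, well under every member.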
